A study of Arabidopsis thaliana with 4 samples.

Results

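The flanks of H3K27me3 domains were taken as the non-upper probes that lie within 3 wells of either end of an unbroken run of 5 or more upper probes. An upper probe has a score at least 1 unit above the array median in both replicates. The array held 249 such runs with 498 ends, and their flanks comprised 1215 of the 21740 probes with a value (5.59%), or 6.67% of the 18216 non-upper probes. Members were thus selected on the scores of both replicates, so the levels given below describe the flanks and were not tested. The samples were chromatin immunoprecipitates from Arabidopsis thaliana seedlings of the wild-type ecotype Col-0, 10 days old, grown untreated in liquid half-strength MS medium under a long-day photoperiod. Each immunoprecipitate, made with a commercial antibody against H3K27me3, was hybridised with its own input DNA on a 2-colour tiling array. All 4 arrays form 1 group: immunoprecipitation I (replicate I) and immunoprecipitation II (replicate II), each on 2 arrays with the dyes exchanged. Seedlings mix organs and cell types, so a score is an average over them.

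H3K27me3 is the trimethylated form of lysine 27 on histone H3. It is written by Polycomb repressive complex 2 and in plants is read by proteins such as LHP1, and it lies on genes that are silent in a given tissue or stage. In Arabidopsis the mark commonly covers the transcribed region of individual silenced genes, so that a marked stretch can end close to unmarked neighbouring genes. In the genome, the flank of such a domain is where the mark gives way to unmarked chromatin. Whether the flank probes taken here lie at such places is not known, since no label ties the order of wells to the genome.

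The deposited table gives 1 score per dye exchange: both arrays of a replicate hold identical values, with a largest difference of 0, so n = 2 throughout. The scores behave as a log ratio whose base and direction the sources used here do not give. Immunoprecipitate over input is the likely direction, on the sole basis of the long tail of high values, and with the sign turned the runs would be stretches of low signal. The array median was -0.94 for replicate I and -1.20 for II as deposited, and every value below is in units above these medians. Single intensities were not used here, and the precision is limited by having 2 replicate scores per probe. The labels do not say whether the immunoprecipitations came from separate cultures, and their spread may be technical. Probes carry plate and well names, and the genome positions, lengths and sequences of the probes were not used here. "Left" and "right" mean lower and higher wells in name order, and a distance in wells is not a distance in bases.

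Flank probes lay on 146 of the 231 plates, with a median of 6 and at most 23 on a plate. The TA plates held 499 of them beside 109 runs, the TB plates 602 beside 117 runs, the TC plates 67 beside 14 runs and the PD plates 47 beside 9 runs. The TD plate had no run of this length. By the nearest run end, 599 members lay on the left of a run, 593 on the right and 23 equally close to ends on both sides. Within 3 wells of a run end there were 478 members at well 1, 385 at well 2 and 352 at well 3. In all, 55 members lay within reach of 2 run ends.

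The limit of 1 unit cuts through a continuous range of scores. The flank probe closest to it was TA84C04, at 1.30 units in replicate I and 0.999 units in II. The run end closest to it was TA08C04, at 1.92 and 1.0002 units. The non-upper probes at well 4, just beyond reach of that run end, averaged 0.27 ± 0.63 units in replicate I and 0.14 ± 0.42 in II (SD over 362 positions). Some of them are flank probes of another run. Well 1 averaged 0.996 ± 0.66 and 0.50 ± 0.41 units beside the 62 runs of 5 (SD over 123 edges). Beside the 97 runs of 4, just below the length limit, it averaged 0.99 ± 0.65 and 0.52 ± 0.39 units (SD over 193 edges).

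Over all flanks mean scores were lower at each well further out, with the largest step between the last probe of a run and the first probe outside it. Inside the runs, 2 wells from the end, scores averaged 2.73 ± 0.58 units in replicate I and 2.08 ± 0.55 in II (SD over 498 ends). The last run probe averaged 2.20 ± 0.56 and 1.57 ± 0.45 units. One well outside, the 478 flank probes averaged 0.97 ± 0.63 units in replicate I and 0.53 ± 0.40 in II. At well 2 the 385 flank probes averaged 0.43 ± 0.61 and 0.25 ± 0.42 units, and at well 3 the 352 flank probes averaged 0.38 ± 0.59 and 0.19 ± 0.42 units. Replicate I was the higher at each of these distances, and both replicates had the same order of distances over all flank probes. On the TA plates well 3 was above well 2, at 0.50 and 0.45 units in replicate I and 0.25 and 0.23 in II, and it was so in replicate I on the left side (0.42 and 0.41 units) and on the PD plates (0.043 and 0.037 units). The difference between wells 2 and 3 was smaller than the SD over probes in both.

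**Figure D1:**
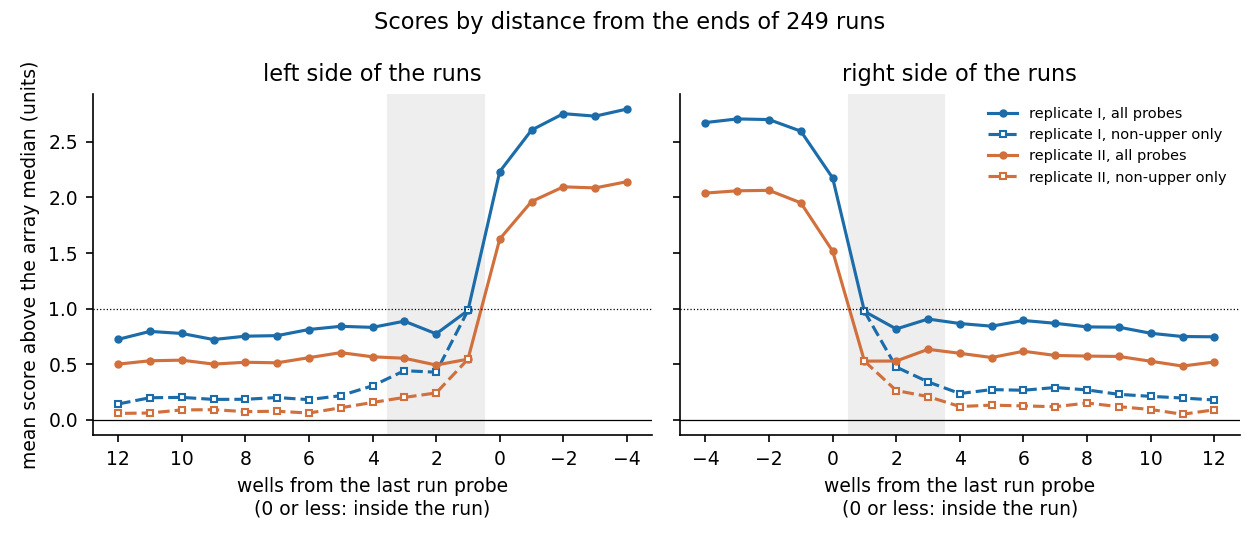
Mean score (vertical axis, units above the array median) by distance in wells from the last probe of a run (horizontal axis; 0 and below lie inside the run), for the left and the right side of 249 runs in replicates I and II. Filled circles take all probes, open squares the non-upper ones alone, and the grey band marks the flank. Scores drop between wells 0 and 1 on both sides, and from well 4 on the non-upper probes lie lower than at well 1 on both sides and all probes together lie higher than the non-upper ones alone.

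The low level of wells 2 and 3 is partly made by the rule, which leaves out upper probes. Of the 497 probes at well 2, 92 were upper (18.5%), and of the 497 at well 3, 129 were upper (26.0%). With these included, well 2 averaged 0.80 ± 0.95 units in replicate I and 0.51 ± 0.70 in II, and well 3 averaged 0.90 ± 1.04 and 0.59 ± 0.80 units. Over the whole array 16.2% of probes were upper. At 12 wells 24.2% of probes were still upper, and the 376 non-upper ones averaged 0.16 and 0.07 units. Wells 2 to 12 beside a run thus each held a larger share of upper probes than the array as a whole, in an order that no label ties to the genome.

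Set against the other 17001 non-upper probes, flank probes were higher in both replicates. The 1215 flank probes averaged 0.63 ± 0.67 units in replicate I and 0.34 ± 0.44 in II, against -0.011 ± 0.573 and -0.058 ± 0.423 for the other non-upper probes (SD over probes). Only 20.5% of the flank probes in replicate I and 23.3% in II lay below the median, against 62.5% and 62.3% of the others. At well 3 the shares below the median were 32.1% and 31.5%. Being next to a run is what chose these probes, and neighbouring scores are alike, so the difference is a description of the rule's outcome.

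**Figure D2:**
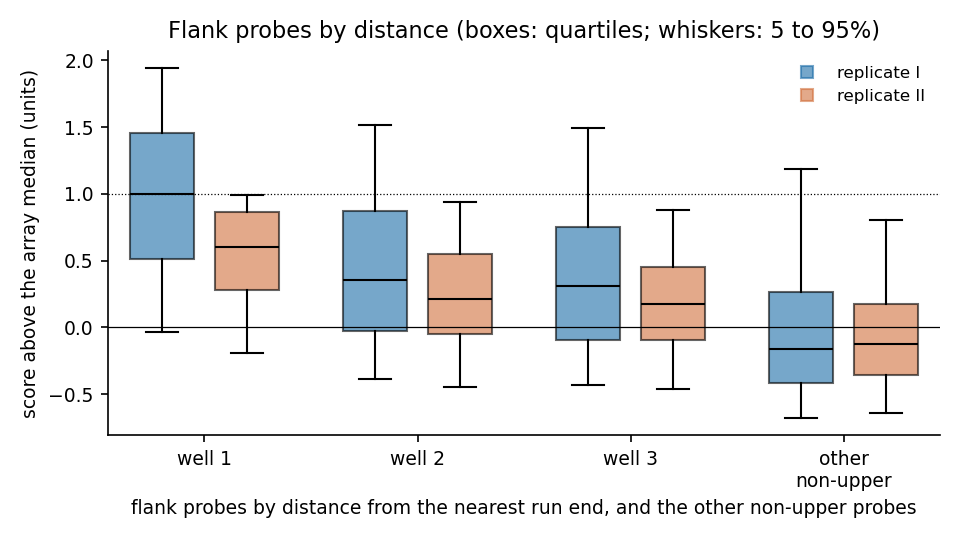
Scores (vertical axis, units above the array median) of flank probes 1, 2 and 3 wells from the nearest run end and, at the right, of the 17001 other non-upper probes, in replicates I and II. Boxes give the quartiles with the median as a line, and whiskers run between the 5th and 95th percentiles. Medians are 0.996, 0.36 and 0.31 units at wells 1, 2 and 3 in replicate I and 0.60, 0.21 and 0.18 in replicate II, and the dotted line is the limit of 1 unit.

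The step across the edge was larger than the usual difference between neighbours. The fall from the run end to well 1 averaged 1.23 ± 0.75 units in replicate I and 1.04 ± 0.56 in II (SD over 497 edges). Taken without its sign, this step averaged 1.24 and 1.04 units. By the same measure, neighbours inside the runs differed by a mean of 0.41 and 0.42 units (1844 pairs). Neighbouring non-upper probes away from runs and flanks differed by 0.34 and 0.29 units (16124 pairs). An edge is by its definition a pair on either side of the limit, so a larger step was bound to appear. At 12 edges well 1 was above the run end in replicate I and at 2 edges in II, and at no edge in both. Across edges the size of the fall was alike in both replicates (Pearson's r = 0.75, Spearman's rho = 0.74, 497 edges, across edges that share the same arrays and were chosen with both replicates).

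The profile was also read in the replicate that had not defined the runs. Runs of 5 or more probes at 1 unit or above in replicate II alone numbered 251. In replicate I their last probe averaged 2.16 ± 0.60 units, well 1 averaged 0.98 ± 0.65, well 2 averaged 0.74 ± 0.91 and well 3 averaged 0.84 ± 1.01, upper probes included. At well 1, 52.1% of the probes were at 1 unit or above in replicate I, against 7.63% of all probes in replicate I only. Runs defined in replicate I alone numbered 364. In replicate II their last probe averaged 1.09 ± 0.55 units and wells 1, 2 and 3 averaged 0.28 ± 0.42, 0.30 ± 0.60 and 0.34 ± 0.71. Between the run end and well 1 the mean dropped in each replicate when the other had set the edge, by 1.17 units in replicate I and 0.81 in II. The replicates were correlated (Pearson's r = 0.74 over the 1215 flank probes). A drop in the other replicate was therefore partly fixed by how the edge was set, and nothing is read from it. Beyond well 1 the means did not keep falling: well 3 was above well 2 in both replicates, and above well 1 in II. At well 1 outside the runs of replicate I, 5.39% of the probes were at 1 unit or above in replicate II. Well 1 is by definition under 1 unit in the replicate that set the runs. Over all probes, 0.92% were at 1 unit or above in replicate II only.

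The left and right sides of the runs had similar mean profiles. Flank probes at well 1 averaged 0.97 ± 0.62 units on the left (n = 229) and 0.96 ± 0.65 on the right (n = 230) in replicate I, and 0.52 ± 0.39 and 0.51 ± 0.41 units in replicate II. The left minus right difference was 0.0090 units in replicate I and 0.019 in II. Run by run, over the 248 runs with a value on both sides, this difference had an SD of 0.88 units in replicate I and 0.58 in II, and the left was the higher in 119 and 124 runs. At well 2, left minus right averaged -0.045 and -0.036 units over 166 runs, and at well 3 it averaged 0.093 and 0.023 units over 141 runs. For the last run probe it was 0.057 and 0.11 units. With 2 replicates an exact two-sided test cannot give a p below 0.5, so no difference of sides was tested.

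Across runs the score on one side was nearly uncorrelated with that on the other. Between the left and the right well 1 of the same run, scores had r = 0.025 for replicate I and -0.082 for II (rho 0.0073 and -0.090, 248 runs, read on the same arrays). The median absolute difference between the sides was 0.58 units in replicate I and 0.39 in II.

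**Figure D3:**
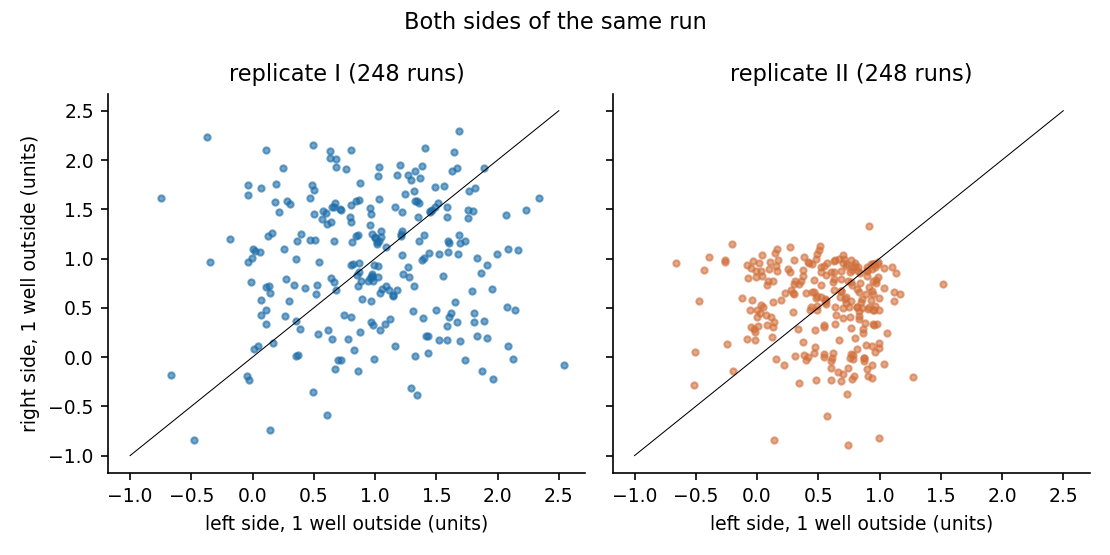
Score 1 well outside the run on its right side (vertical axis, units above the array median) against that on its left side (horizontal axis) for the 248 runs with a value on both sides, in replicates I and II. Each point is a run and the line marks equal scores. The points spread over the whole field with little slope, and replicate II reaches 1.52 units where replicate I reaches 2.54.

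Edges were then sorted by the score at well 1. A sharp edge had its first outside probe under 0.5 units in both replicates, a sloping edge had it at 0.5 units or more in both, and the others were called intermediate. These names give the level at well 1 alone, so an edge called sloping need not come down gradually. Of 497 edges, 101 were sharp (20.3%), 116 intermediate (23.3%) and 280 sloping (56.3%), and beyond 1 run end the next well had no value. The share of sharp edges depends on where the limit is set and on requiring it in both replicates. It was 12.1% with a limit of 0.25 units and 30.2% with 0.75 units. It was 41.1% with runs and flanks taken in replicate II alone and 53.1% with replicate I alone. By another measure, at least 75% of the fall from the run end to the mean of wells 2 and 3 came in the first step, in both replicates, at 37.3% of the edges followed by 3 non-upper wells. By the level at well 1, 96 of these 354 edges were sharp (27.1%).

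The median height of the run differed little between sharp and sloping edges. The median score of the run averaged 2.60 units beside sharp edges, 2.64 beside intermediate and 2.54 beside sloping ones in replicate I. In replicate II it averaged 1.92, 1.98 and 1.88 units. Across the 497 edges the score at well 1 correlated with the run's median at r = 0.024 in replicate I and -0.044 in II. With the last run probe it correlated at r = 0.20 and 0.13. That probe averaged 2.06, 2.28 and 2.23 units beside sharp, intermediate and sloping edges in replicate I. In replicate II it averaged 1.45, 1.63 and 1.59 units, and these differences were smaller than the SD over edges. The median run length was 7 probes beside each kind of edge.

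At 354 edges all of the first 3 wells were non-upper, and there the shapes went on to differ beyond well 1. Sharp edges (n = 96) reached 0.09 ± 0.30 units at well 1 in replicate I and stayed at 0.03 ± 0.49 at well 2 and 0.12 ± 0.50 at well 3. In replicate II they stood at 0.014 ± 0.28, 0.017 ± 0.33 and 0.015 ± 0.40 units. Sloping edges (n = 176) stood at 1.30 ± 0.41, 0.55 ± 0.55 and 0.49 ± 0.59 units in replicate I. They stood at 0.78 ± 0.17, 0.35 ± 0.38 and 0.28 ± 0.37 units in replicate II. Well 1 set these classes and is no result, whereas wells 2 and 3 were not used to sort the edges beyond being non-upper. At well 3 a sloping edge remained above a sharp one by less than 1 SD over edges in each replicate.

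**Figure D4:**
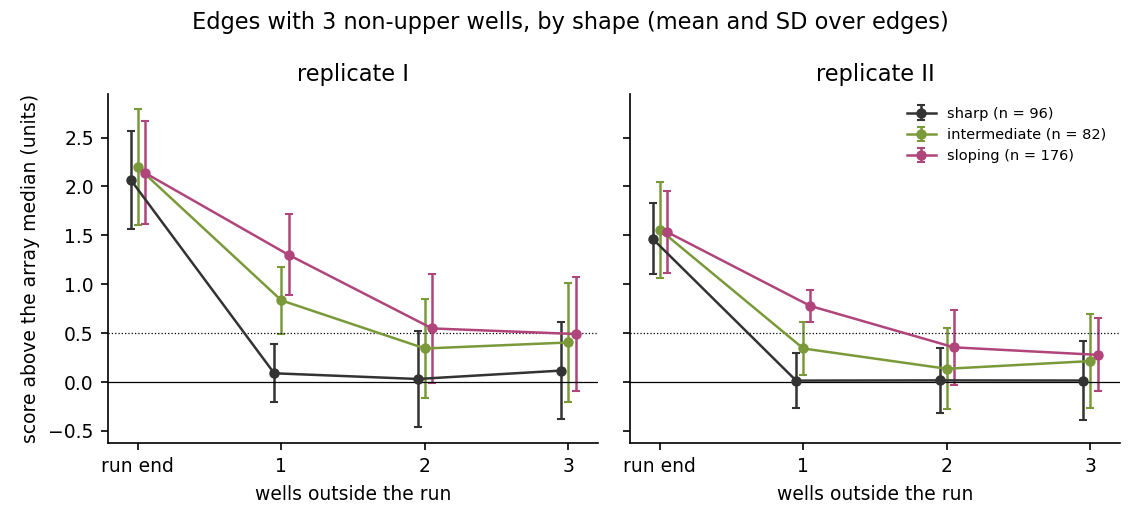
Mean score (vertical axis, units above the array median) at the run end and 1, 2 and 3 wells outside (horizontal axis) for sharp, intermediate and sloping edges with 3 non-upper wells, in replicates I and II. Error bars are the SD over edges, and the dotted line is the limit of 0.5 units that sorts the edges at well 1. Sharp edges reach the array median at well 1, sloping edges come down over wells 1 and 2, and all start from similar run ends.

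The shapes of both sides were then set against each other. Of 248 runs, 46 had a sharp, 63 an intermediate and 139 a sloping left side, and 55 a sharp, 53 an intermediate and 140 a sloping right side. Both sides were of the same class in 107 runs (43.1%). Both were sharp in 13 runs and both sloping in 77. A further 59 runs had a sharp and a sloping side: the left was the sharp one in 26 and the right in 33. A sharp right side was found in 28.3% of the runs with a sharp left side, 14.3% of those with an intermediate and 23.7% of those with a sloping one, against 22.2% of all 248 runs.

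The largest fall from run end to well 1, among edges followed by 3 non-upper wells, was on the left of a run of 5 probes on plate TA 89. Its last probe, TA89E11, scored 4.15 units in replicate I and 3.68 in II, and TA89E10 beside it scored 0.86 and 0.09, a mean fall of 3.44 ± 0.21 units (SD, n = 2). This edge counts as intermediate because TA89E10 was above 0.5 units in replicate I. The next was the left edge of a run of 5 on plate TA 21, where TA21A06 scored 2.73 and 2.07 units and TA21A05 scored -0.75 and -0.43. Its well 2 (TA21A04) and well 3 (TA21A03) also lay below the median in both replicates. The other edges among the 5 largest falls were those at TA69A06, PD02F10 and TB44D02, each under 0.5 units in both replicates, with mean falls of 2.96 ± 0.78, 2.76 ± 1.02 and 2.62 ± 0.42 units.

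At the smallest falls well 1 was about as high as the run end. TB52A06, left of a run of 6 that ends at TB52A07, scored 1.91 units in replicate I and 0.94 in II, against 1.55 and 1.35 at the run end. Scores then came down gradually, with 1.36 and 0.89 units at TB52A05 and 1.15 and 0.54 at TB52A04. TA84C04, left of a run of 12, scored 1.30 and 0.999 units against 1.42 and 1.01 at its run end TA84C05, yet the next probe TA84C03 was at -0.13 and -0.20. The drop there lay 1 well further out than the rule places the edge, which counts as sloping by its well 1. The remaining 3 of the 5 smallest falls, at TB35B03, TB38B06 and TB38E01, had mean falls of 0.07 ± 0.27, 0.07 ± 0.35 and 0.10 ± 0.32 units. In each of them well 1 was above the run end in replicate I and below it in II.

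Beside the 3 longest runs both kinds of edge occurred. The run of 46 probes on plate TB 32 came down on its left over TB32C08 (0.78 and 0.70 units in replicates I and II), TB32C07 (0.49 and 0.53) and TB32C06 (0.30 and 0.44). On its right TB32G07 was at 0.18 and 0.40 units and TB32G08 at 0.04 and -0.08, a sharp edge. The run of 36 probes across plates TB 24 and 25 had upper probes again at well 3 on both sides: TB24G08 scored 1.85 and 1.09 units, and TB25C01 scored 2.20 and 1.71. On the left of the run of 28 probes on plate TB 38, TB38F07 was at 1.42 and 0.94 units. TB38F06 beyond it was upper, at 2.22 and 1.29 units, and TB38F05 was again non-upper, at 0.66 and 0.33. The right edge of this run was sharp, with TB38H12 at 0.21 and 0.11 units.

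Long and short runs had edges of similar height. Well 1 averaged 0.99 ± 0.58 units in replicate I and 0.55 ± 0.38 in II beside runs of 10 or more (116 edges). Beside runs of 5 to 9 it averaged 0.98 ± 0.65 and 0.53 ± 0.40 units (381 edges). Sharp edges made up 14.7% beside runs of 10 or more and 22.0% beside runs of 5 to 9, and sloping edges 55.2% and 56.7%.

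The PD plates had a larger share of sharp edges than the other series, a difference that was not tested. There 11 of 18 edges were sharp (61.1%), against 38 of 217 on the TA plates (17.5%), 43 of 234 on the TB plates (18.4%) and 9 of 28 on the TC plates (32.1%). Well 1 averaged 0.35 ± 0.81 units in replicate I and 0.21 ± 0.48 in II on the PD plates. It averaged 0.95 ± 0.62 and 0.55 ± 0.41 units on the TA plates and 1.06 ± 0.59 and 0.55 ± 0.37 on the TB plates (SD over edges). The 18 PD edges come from 9 runs, and whether PD wells follow any genomic order was not tested. Steps that cross between plate rows looked like those within a row: the fall was 1.23 ± 0.74 units in replicate I and 1.06 ± 0.57 in II at 38 edges across a row boundary, and 1.23 ± 0.76 and 1.04 ± 0.56 at 456 edges within a row. Only 3 edges coincided with a plate boundary.

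At some edges upper probes resumed within the flank. By well, 18.5% of probes were upper at well 2 and 26.0% at well 3. Over all probes the share was 16.2%, and at 12 wells it was 24.2%, so a return was not particular to the flank. At 142 of 497 edges (28.6%) an upper probe returned at well 2 or 3, at 92 of them already at well 2. It returned at 5 of 101 sharp edges (4.95%), 34 of 116 intermediate edges (29.3%) and 103 of 280 sloping edges (36.8%). The 92 edges with a return at well 2 involve 73 different probes, which averaged 1.35 ± 0.56 units in replicate I and 0.76 ± 0.29 in II. Of these 73 probes, 51 (69.9%) were at 1 unit or above in replicate I only, against 7.63% of all probes. Just 1 lay under 0.5 units in both replicates, against 80.1% of the non-upper probes outside the flanks. They were chosen as non-upper probes between upper ones, so nothing is read from these counts. At 38 of the 92 edges the returning probe belonged to another run of 5 or more, at 40 to a run of 2 to 4, and at 14 it stood alone.

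A set of 19 probes separated 2 runs of 5 or more by themselves. Their scores spread between 0.15 and 1.91 units in replicate I and between 0.04 and 1.12 in replicate II. The lowest by mean was TA97E11, at 0.68 and 0.04 units, and the highest was TA09D08, at 1.91 and 0.94 units; these were chosen after their values were seen. Of the 19, 13 (68.4%) were at 1 unit or above in replicate I only and 4 (21.1%) in replicate II only. Over all probes these shares were 7.63% and 0.92%. All but 2 of them therefore passed in one replicate and missed in the other. The rule leaves out probes that pass in both, so nothing is read from these counts.

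Flank probes that passed the limit in 1 replicate did so mostly in replicate I. At least 1 unit in replicate I only was reached by 369 of 1215 flank probes (30.4%), against 7.59% of the other non-upper probes and 7.63% of all probes. The share was 49.8% at well 1 (238 of 478), 20.0% at well 2 (77 of 385) and 15.3% at well 3 (54 of 352). At least 1 unit in replicate II only was reached by 29 flank probes (2.39%), against 0.92% of all probes. Replicate I was the higher for 83.5% of the probes at well 1, by a mean of 0.44 units over well 1. The rule excludes probes that pass in both replicates, so those that pass in 1 are what remains beside a run, and nothing is read from the share itself.

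**Figure D5:**
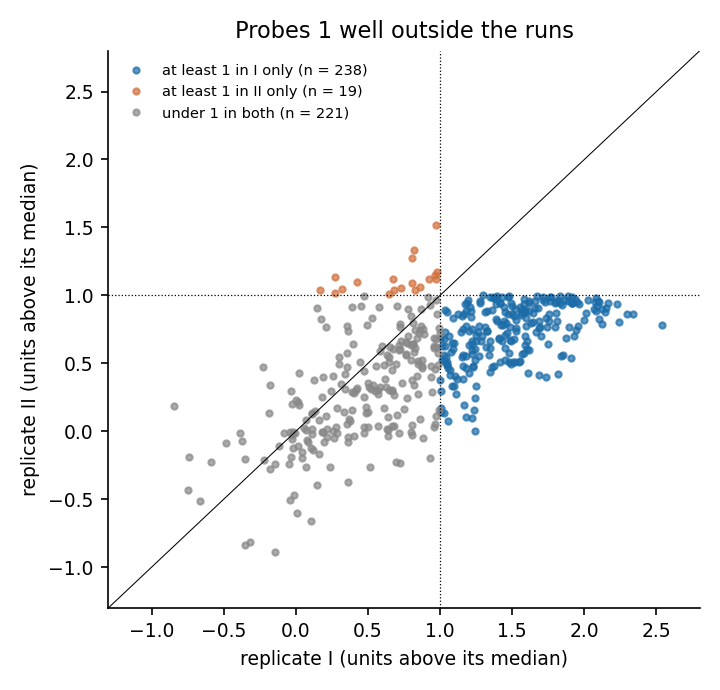
Score in replicate II (vertical axis) against replicate I (horizontal axis), both in units above the array median, for the 478 probes 1 well outside the runs. Dotted lines are the limits of 1 unit, whose upper right field is empty by the rule, and the solid line marks equal scores. The 238 probes at 1 unit or above in replicate I only outnumber the 19 in replicate II only, and most of them lie between 0.5 and 1 unit in replicate II.

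Read in 1 replicate alone, a run can only keep its ends or reach further out, since the rule asks for 1 unit in both. The counts here largely repeat the share of well 1 at 1 unit or above in 1 replicate only, 49.8% for replicate I. Over all probes that share was 7.63% for replicate I and 0.92% for II. Nothing is read from the extension itself. At 251 of 497 edges (50.5%) at least 1 well beyond the run end was at 1 unit or above in replicate I only: 1 well at 190 edges, 2 wells at 45, 3 at 10 and more at 6, with at most 5. At 90 of these 251 edges (35.9%) the extension led straight to another upper probe. In replicate II alone only 23 edges (4.63%) were extended, by at most 2 wells. Of the 248 runs with a value on both sides, 69 were extended on both in replicate I, 112 on 1 side and 67 on neither. Left and right edges were extended about equally, 122 and 129 times.

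This excess depended on the scale of the replicates. Replicate I spans the wider range, and with the spread of both replicates made equal the share at 1 unit or above in replicate I only was 18.0% of 1316 flank probes and that in replicate II only 5.40%. After quantile normalization they were 12.3% and 8.17% of 1396 flank probes. The reason for the wider range of replicate I was not tested.

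The extremes of the flank are given by probe. The highest by mean was TA75A06, 3 wells left of a run of 6, at 2.42 units in replicate I and 0.94 in II (mean 1.68 ± 1.05, SD, n = 2). TA97H06 followed at 2.39 and 0.96 units, then TB36A01 at 2.54 and 0.78, TB77B02 at 2.25 and 0.97, and TB16F01 at 2.33 and 0.86. All 5 were at 2.25 units or more in replicate I and between 0.78 and 0.97 in II. The rule leaves out probes that pass in both replicates, so a flank probe with a high mean is bound to miss in 1 of them. TB36A01 also had the largest excess of replicate I over replicate II, 1.75 units, and lies between the upper probes TB35H12 and TB36A02. In TA21C09 the excess was 1.58 units, with 0.69 units in replicate I and -0.89 in II.

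Excess in the other direction was rarer, as replicate I was the higher for 73.3% of the flank probes. TB83G02, 2 wells left of a run of 5, scored 0.67 units in replicate I and 1.96 in II, an excess of 1.29 units for replicate II. PD02F10, TA87B12, TA77G12 and PD02B02 followed, with excesses of 1.03, 0.99, 0.96 and 0.95 units.

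Some flank probes lay clearly below the array median within 3 wells of a run. The lowest by mean was TB44D04, 3 wells right of a run of 6, at -0.58 units in replicate I and -0.93 in II (mean -0.76 ± 0.25, SD, n = 2). PD02B02 was at -1.15 and -0.20 units, 2 wells from a run of 12, and the intervening PD02B03 was at 0.98 and 1.17. TB98G08 was at -0.64 and -0.63 units, TB88B10 at -0.79 and -0.47, and TA77H01 at -0.70 and -0.56. In all, 165 flank probes (13.6%) were below the median in both replicates, 26 of them at well 1, against 52.4% of the other non-upper probes.

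Flanks of shorter runs were set beside these. Well 1 averaged 0.97 and 0.53 units in replicates I and II beside runs of 5 or more. It averaged 0.90 and 0.50 units beside runs of 2 to 4 (722 probes) and 0.81 and 0.45 beside single upper probes (366 probes), leaving out probes that also lie near a longer run. At well 3 the averages were 0.38 and 0.19 units beside runs of 5 or more, 0.20 and 0.09 beside runs of 2 to 4, and 0.15 and 0.06 beside single upper probes. Both replicates gave this order, the differences were smaller than the SD over probes, and they were not tested. The sets were built unlike, since flank probes of runs of 5 or more were kept when near other runs. Kept near 1 run only, their well 1 averaged 0.65 units (mean of the replicates). Against this stood 0.70 units beside runs of 2 to 4 and 0.63 beside single upper probes, so the order at well 1 was not kept. The sets of shorter runs could still lie near other short runs.

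By limma's moderated test, 485 of 1215 flank probes (39.9%) were above the array median at a Benjamini-Hochberg adjusted p under 0.05 over all 21740 probes, where 27.1% of all probes were. The share over all probes includes the upper probes, all of which were called, and 11.1% of the non-upper probes outside the flanks were called. The count was 300 of 478 at well 1 (62.8%), 103 of 385 at well 2 (26.8%) and 82 of 352 at well 3 (23.3%). Below the median the test called 6 flank probes (0.494%), against 6.12% of the other non-upper probes and 4.81% of all probes. The rule used the same contrast, so these counts place the flanks beside the array and support nothing further. TB44D04, TB98G08, TB88B10 and TA77H01, named above, were among the 6.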

How the data were processed

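The authors' deposited value table holds a score per probe for each of 4 arrays. No label names the normalization behind it, its log base, its centring or its direction. The table lists 21800 features; 39 control features and 21 plate-and-well probes without a value were left out. No sample column was unused. A replicate is the mean of its dye-exchanged pair of arrays, minus its median over all these probes. Probes were ordered by series, plate, row A to H and well 1 to 12, and a well without a value ends a run. An intercept was fitted per probe with limma (lmFit, eBayes; 1 residual degree of freedom, two-sided, Benjamini-Hochberg over 21740 probes). It had been planned for log values and was kept for the score. It and the run finder were tested on simulated data. Members, limits and lists were chosen with earlier results of these data known. Named are the 5 largest and smallest falls at edges with 3 non-upper wells, the 5 highest and lowest flank probes, the 5 largest excesses of either replicate, and the flanks of the 3 longest runs. Alternatives covered centring, scale, the rules for upper probes, runs and sharp edges, the PD probes, single replicates and limma's settings. Software: R 4.3.3, limma 3.58.1, Python 3.11.15, numpy 2.4.6, pandas 2.3.3, scipy 1.17.1 and matplotlib 3.10.9.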

Additional observations from a re-analysis of the deposited data

How the results depend on the processing

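Counts and shares moved with the rules that define runs and edges, as follows from their construction, and the mean at 1 well moved too. The 1215 flank probes became 168 without centring, 1852 with upper probes at 0.5 units, 687 at 1.5 units, 2324 beside runs of 3 or more and 270 beside runs of 10 or more, and 1240 to 1746 with 1 replicate left out. The other 7 settings kept the number within 1.5 times. The mean at 1 well (0.75 units) was 0.31 with the rule of 0.5 units, 1.25 with 1.5 units and 0.27 for runs of replicate I read in replicate II. It was 0.42 to 0.50 with 1 replicate left out. In the other settings it stayed within 0.31 units of the main value, the SD between the replicates. The share at 1 unit or above in replicate I only (30.4%) was 51.2% without centring, 33.9% with centring on the mode, 18.0% with equal spread and 12.3% after quantile normalization. It was 25.6% and 38.7% with the rules of 0.5 and 1.5 units in place of 1, 33.7% beside runs of 10 or more and 23.8% for probes near 1 run only. Without the PD probes it was 30.8%. The share of sharp edges (20.3%) was 7.81% without centring, 14.9% with the mode, 24.5% with equal spread, 25.8% after quantile normalization, 51.9% and 7.80% with the rules of 0.5 and 1.5 units, 14.7% beside runs of 10 or more and 27.6% for probes near 1 run only. It was 70.4% for runs of replicate I read in replicate II, 24.8% the other way round, 41.1 to 53.1% with 1 replicate left out, and 12.1% and 30.2% with limits of 0.25 and 0.75 units. By the first step it was 37.3% of the edges followed by 3 non-upper wells, where the level at well 1 gave 27.1%. Left minus right at 1 well (0.014 units, mean of the replicates) had no stable sign: -0.057 without centring, -0.0030 with the mode, -0.0099 with equal spread, -0.032 after quantile normalization, -0.0091 and -0.13 with the rules of 0.5 and 1.5 units, -0.0093 beside runs of 3 or more, 0.14 beside runs of 10 or more, 0.056 for probes near 1 run only, 0.0031 without the PD probes, -0.017 and 0.0024 when read across replicates, and -0.0075 to 0.021 with 1 replicate left out. The 485 flank probes above the median by limma were 75 without centring, 128 with the rule of 0.5 units, 904 beside runs of 3 or more, 123 beside runs of 10 or more, 301 near 1 run only, 184 at adjusted p under 0.01 and 223 with a mean of at least 1 unit. The cause of moves that do not follow from a changed limit or a smaller set was not tested. With 1 replicate limma cannot estimate a variance, and its count was not made there. No paired analysis was possible because all arrays form 1 group. Single intensities were not used here, so dim probes near the edges cannot be set apart.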
